A study of Homo sapiens with 18 samples.

Results

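Oxidative phosphorylation (OXPHOS) is built from the products of 2 genomes, and the genes described here are the measured members of both. Nuclear members were all genes, pseudogenes left out, whose symbol begins with NDUFA, NDUFB, NDUFC, NDUFS, NDUFV, UQCR, COX4 to COX8, ATP5F1, ATP5M or ATP5P, or is SDHA, SDHB, SDHC or SDHD, and whose mean count over all libraries was at least 10. Of 284 genes with such symbols, 181 were pseudogenes and 12 were under that mean, which left 91. With the 13 mitochondrially encoded mRNAs they made 104 members of the 60623 genes listed, and all 104 passed the filter on low counts. The nuclear members were 88 coding genes (37 of complex I, 8 NDUFAF assembly factors of complex I, 4 of complex II, 9 of complex III, 13 of complex IV and 17 of complex V) and 3 non-coding neighbours that the symbol rule takes in, NDUFA6-DT, NDUFB2-AS1 and NDUFV2-AS1. Just inside the limit lay NDUFV2-AS1 with a mean count of 13.8 and NDUFA7 with 19.8, and just outside it UQCRB-AS1 with 4.33 and UQCRFS1-DT with 2.72.

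The RNA came from THP-1, an established human monocytic leukaemia line. Phorbol 12-myristate 13-acetate (PMA) makes these cells adhere and take on macrophage features. All 6 groups were given 100 nM PMA for 24 h, and each held 3 libraries. The S14 line carried human Siglec-14, a sialic acid-binding receptor that pairs with an activating adaptor, the S5 line carried human Siglec-5, an inhibitory receptor with a nearly identical outer part, and the EV line carried the empty vector. Cells of each line were kept for 48 h in medium of which 50% had been conditioned (CM) on cells of the established colorectal cancer line SW620, or were mock treated, which gave the groups S14 CM, S14 mock, S5 CM, S5 mock, EV CM and EV mock. Whether a line was 1 clone or a pool is not stated in the sources used here. Nothing states that replicates 1, 2 and 3 were separate cultures, so p-values reflect no more than the variation among these libraries, which may be technical.

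Complexes I to IV form the electron transport chain in the inner mitochondrial membrane. Complex I takes electrons from NADH and complex II from succinate, complex III passes them to cytochrome c, and complex IV hands them to oxygen. Complexes I, III and IV pump protons out of the matrix, and complex V, the ATP synthase, uses their return to make ATP. Complex II is encoded in the nucleus alone, while the core membrane subunits of the other complexes are transcribed from the circular mitochondrial chromosome as long precursors and cut into single mRNAs. Macrophages are known to shift between oxidative phosphorylation and glycolysis with their activation state.

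The libraries held 15.0 to 26.05 M counts. SIGLEC14 stood at 779 ± 198 CPM (counts per 1 M after TMM scaling; mean ± SD, n = 3) in S14 mock, against 17.7 CPM in EV mock, while SIGLEC5 reached at most 24 counts in any library, so the S5 label could not be checked by its own gene. All 10 listed monocyte and macrophage markers were detected. Of the 6 lymphocyte markers CD3E was at 0, MS4A1 had 1 count and CD3D 6 counts over all libraries, while NKG7 had 1982, and the list summed to 2.11 to 15.3 CPM per library. The 11 colorectal epithelial markers summed to 0.232 to 0.892 CPM per library, and EPCAM, KRT19, KRT20 and CEACAM5 were at 0 in all 18. Libraries with replicate number 3 stood apart from replicates 1 and 2 in every group, so each comparison below is given with and without them.

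Promoter and coding sequences show how the members are laid out: promoter letters read by NRF1 (nuclear respiratory factor 1), a transcription factor long tied to nuclear respiratory genes, and the overlap of the ATP8 and ATP6 reading frames on the mitochondrial chromosome. The letters GCGCNTGCG, searched on both strands, were present in RefSeq promoters (GRCh38.p14, 250 bases before to 50 after a start) of 26 of the 75 nuclear members with a promoter entry (34.7%), against 9.01% of all 27305 genes with one. The letters CCGGAAG, which ETS factors read, were in 23 of the 75 (30.7%) against 12.2% of all genes, AANATGGCG, which YY1 reads, in 19 (25.3%) against 3.85%, and TATAAA in 6 (8%) against 14.0%. The stretches printed come from members named in the results, 1 each of complexes I, II, III and V, with the NRF1 letters in capitals; in these promoters no NRF1 match overlapped a match of another set of letters. NDUFS6 (accessory complex I subunit) is on the + strand at chr5:1801331-1801399, SDHD (membrane anchor of complex II) on the + strand at chr11:112086733-112086802, UQCRC1 (core protein of complex III) on the − strand at chr3:48609655-48609723 and ATP5PF (stalk of complex V) on the − strand at chr21:25735136-25735204.
NDUFS6: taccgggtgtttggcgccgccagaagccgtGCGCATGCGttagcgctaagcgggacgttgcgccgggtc
SDHD: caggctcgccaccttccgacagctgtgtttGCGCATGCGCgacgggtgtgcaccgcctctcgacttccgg
UQCRC1: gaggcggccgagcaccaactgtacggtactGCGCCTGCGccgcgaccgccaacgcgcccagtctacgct
ATP5PF: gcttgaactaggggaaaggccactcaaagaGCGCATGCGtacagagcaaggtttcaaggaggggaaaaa

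The letters in SDHD match on both strands and count as 2 matches. A match describes the letters only and is not shown to be a bound site.

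ATP8 and ATP6, the mitochondrially encoded subunits of complex V, share 46 bases at chrM:8527-8572 on the + strand of GRCh38 (GENCODE release 29). They are printed because reads in them cannot be told apart and make up 22.2% of the ATP8 exon; capitals mark the ATP6 start codon and the ATP8 stop codon.
ATP8/ATP6: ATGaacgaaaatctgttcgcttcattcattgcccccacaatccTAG

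Per length, on the deposited TPM scale, every one of the 13 mitochondrial mRNAs except ND6 stood above every nuclear member. Over the 18 libraries COX2, a core subunit of complex IV, averaged 19045 ± 4708 TPM (SD), COX1, its catalytic subunit, 17722 ± 3870 TPM and ND4, a proton-pumping subunit of complex I, 13776 ± 3652 TPM. ND6, the only one of these mRNAs encoded on the other strand, averaged 644 ± 286 TPM. The highest nuclear member was ATP5F1B, the catalytic beta subunit of complex V, at 788 ± 156 TPM, followed by COX8A, a small complex IV subunit, at 609 ± 167 TPM.

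Nuclear levels differed widely within each complex. The median over members was 38.5 TPM for complex I, 39.2 TPM for complex II, 92.5 TPM for complex III, 113 TPM for complex IV and 71.0 TPM for complex V, and 22.1 TPM for the NDUFAF assembly factors. Complex I ran from 318 TPM for NDUFS5, an accessory subunit, down to 1.51 TPM for NDUFV2, a core subunit with an iron-sulfur cluster, of whose exonic bases 28.4% overlap another gene. Complex II ran from 119 TPM for SDHD down to 4.80 TPM for SDHA, the flavoprotein that oxidises succinate. SDHC had 33.1 TPM but a higher mean count than SDHD, 3050 against 2163. All its exons together hold 14160 bases, against 2838 for SDHD and 8383 for SDHA. The deposited TPM follows such summed lengths and runs low where they are long, so ranks by TPM between genes and genomes are uncertain. In complex III, UQCRH (the hinge protein) had 321 TPM and UQCRHL, its near-identical copy, 26.0 TPM, and reads of this pair cannot be assigned with certainty. The plot of TPM by complex shows both genomes on 1 scale.

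**Figure D1:**
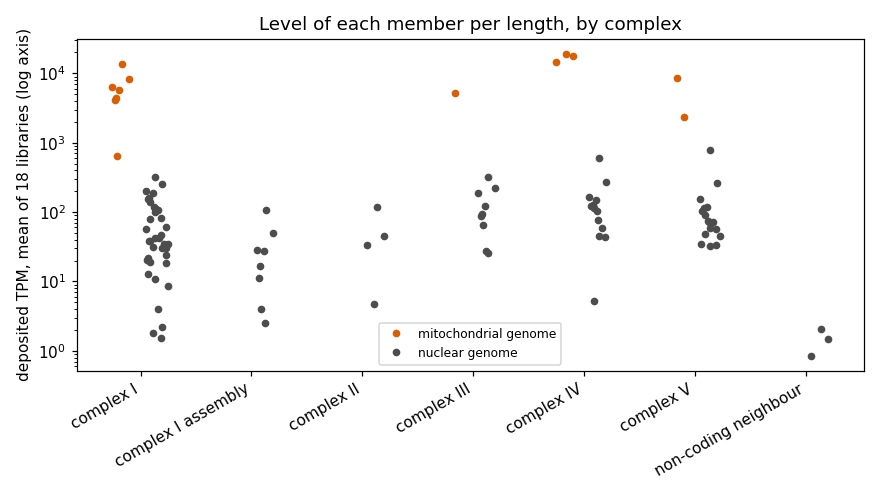
Mean deposited TPM over 18 libraries (log axis) for each member, 1 point per gene, by complex; mitochondrial mRNAs are orange and nuclear members grey. Mitochondrial mRNAs lie between 644 and 19045 TPM and nuclear members between 0.853 and 788 TPM.

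Where a subunit has a tissue-restricted isoform, reads fell almost wholly on the common one. COX4I1, COX6A1 and COX7A2 averaged 124, 128 and 113 TPM, while the lung-type COX4I2 and the muscle and heart types COX6A2 and COX7A1 had 0 counts in all 18 libraries together. The testis forms COX6B2, COX7B2 and COX8C had 20, 1 and 25 counts over all libraries, against 24626, 16542 and 36120 counts for COX6B1, COX7B and COX8A. NDUFA4, a subunit of complex IV, averaged 59.1 TPM and its hypoxia-linked paralogue NDUFA4L2 5.18 TPM. The 3 genes for the identical mature ring subunit c of complex V were all present, ATP5MC2 at 155 TPM, ATP5MC1 at 58.0 TPM and ATP5MC3 at 57.0 TPM.

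The 13 mitochondrial mRNAs took 1.49% to 4.52% of all counts in a library and the 91 nuclear members 0.457% to 0.803%. In S14 CM the mitochondrial share was 4.51% in replicate 3 and 3.11% and 2.88% in replicates 1 and 2. In S14 mock it was 4.52% in replicate 3 and 1.59% and 1.49% in replicates 1 and 2, the widest spread of any group. Replicate 3 was also the highest library of the other lines. S5 CM had 4.36% in replicate 3 and 3.38% and 3.30% in the others, and S5 mock 4.12% in replicate 3 and 2.50% and 2.48% in the others. EV CM had 4.06% in replicate 3 and 3.60% and 3.33% in the others, and EV mock 3.97% in replicate 3 and 2.81% in both others. All 6 libraries of replicate 3 were above all 12 of replicates 1 and 2.

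The nuclear share was also highest in replicate 3, at 0.721% ± 0.0540 (SD, n = 6 libraries), against 0.529% ± 0.0470 in replicates 1 and 2 (n = 12). These groups did not overlap, since replicate 3 ran from 0.642% and replicates 1 and 2 reached 0.632%. The ratio of mitochondrial to nuclear counts, in contrast, was within 5.13 to 6.33 in the 6 libraries of replicate 3. In replicates 1 and 2 it was 6.46 and 6.29 in S14 CM, 3.22 and 3.11 in S14 mock, 6.41 and 5.22 in S5 CM, 4.52 and 4.55 in S5 mock, 6.39 and 6.20 in EV CM and 5.16 and 5.30 in EV mock. The S14 mock pair is lowest, and replicate 3 of S14 mock stood 1.92 times above the mean of that pair, while the factor was 0.96 to 1.13 in the other 5 groups. In bulk RNA, fewer cells of a type and less RNA per cell cannot be told apart. The shares and their ratio, drawn for each library, show the separation.

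**Figure D2:**
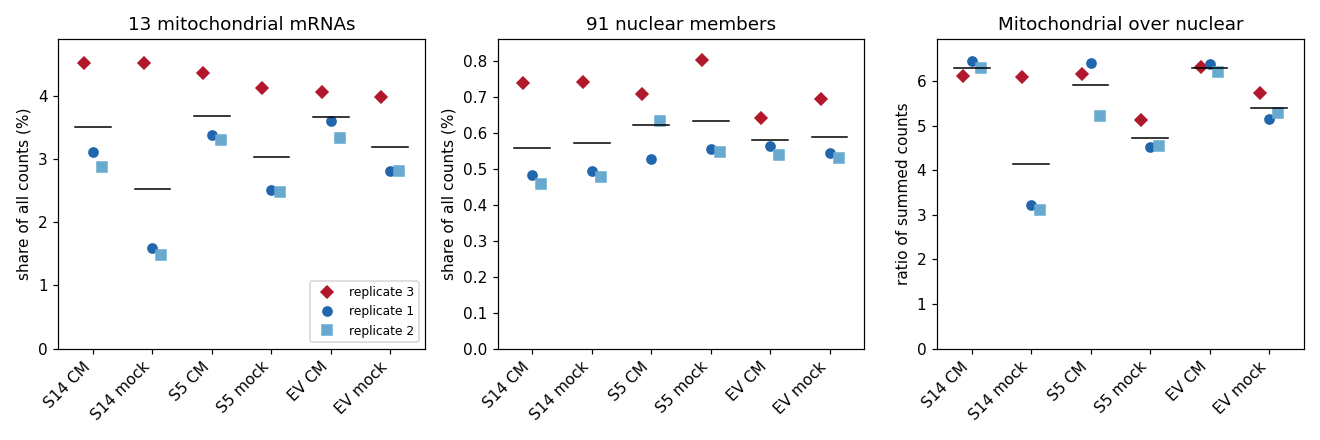
Share of all counts taken by the 13 mitochondrial mRNAs (left) and the 91 nuclear members (middle), in percent, and the ratio of both sums (right), for each library by group; symbols mark the replicate number and lines the mean of 3 libraries. Replicate 3 is highest in both shares, and the ratio is lowest in replicates 1 and 2 of S14 mock, at 3.22 and 3.11.

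Set against replicates 1 and 2 over all groups, replicate 3 had higher levels of most members of both genomes. NDUFA4 ran from 69.5 CPM through a median of 110.4 to 134.7 CPM in replicate 3 and from 22.9 through 43.1 to 55.9 CPM in replicates 1 and 2, without overlap. UQCRQ, a small complex III subunit, ran from 92.7 through 121.5 to 167 CPM in replicate 3 and from 46.4 through 60.7 to 76.8 CPM in the others, again without overlap. ATP5MC1 did the same, with 48.4, 71.1 and 84.9 CPM as lowest, median and highest in replicate 3 and 30.05, 36.3 and 40.5 CPM in the others. In edgeR's quasi-likelihood test with Benjamini-Hochberg adjustment over 17851 genes, at an adjusted p under 0.05, 76 nuclear members were called higher and 3 lower in replicate 3, and all 13 mitochondrial mRNAs higher. Of all genes tested 52.2% were called, 26.1% higher and 26.2% lower, so calls over all genes were split evenly between the directions. The median log2 fold change was 0.78 over the mitochondrial mRNAs and 0.48 over the nuclear members, beside −0.01 over all genes tested.

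By complex, 31 of 37 complex I members were called higher, 6 of 8 assembly factors, 3 of 4 in complex II, 8 of 9 in complex III, 11 of 13 in complex IV and 17 of 17 in complex V. NDUFA4 rose most among nuclear members, by a log2 fold change of 1.33 ± 0.16 (SE; adjusted p 1.2e-05), and ND6 most among mitochondrial ones, by 1.28 ± 0.21. NDUFS5 rose by 0.94 ± 0.09, NDUFAF8 (an assembly factor) by 0.97 ± 0.12 and COX7A2 by 0.72 ± 0.08. NDUFAB1 (complex I) rose by 0.72, NDUFAF4 (an assembly factor) by 0.75, UQCRC1 by 0.56, COX5A (complex IV) by 0.71 and ATP5PF by 0.74. SDHB, the iron-sulfur subunit of complex II, rose by 0.47 ± 0.09 and SDHD by 0.24 ± 0.07. The SDHD call was lost without replicate 1 (adjusted p 0.102) or replicate 2 (0.0724). The 3 called lower were NDUFA4L2 at −0.62 ± 0.21, NDUFA7 at −0.57 ± 0.22 and the non-coding NDUFA6-DT at −0.55. For NDUFA4L2 the log2 ratio of replicate 3 over the others was −1.44 in S14 CM, −0.65 in S5 CM and −1.32 in EV CM. It was 0.02 in S14 mock, 0.13 in S5 mock and −0.23 in EV mock. NDUFA6-DT was not called without replicate 2 (adjusted p 0.143) or with no filter on low counts (0.0522). Of the exonic bases of NDUFA7 33.5% lie in other genes, 32.3% in AC010323.1 on the same strand. With upper-quartile in place of TMM scaling 71 nuclear members and all 13 mitochondrial mRNAs were called, beside 52.3% of all genes, and DESeq2 called 79 and 13, beside 53.3%. Members with the NRF1 letters in a promoter had a median of 0.46 (n = 26) and those without 0.51 (n = 49), a difference that is small beside the spread among members, as the plot by complex shows.

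**Figure D3:**
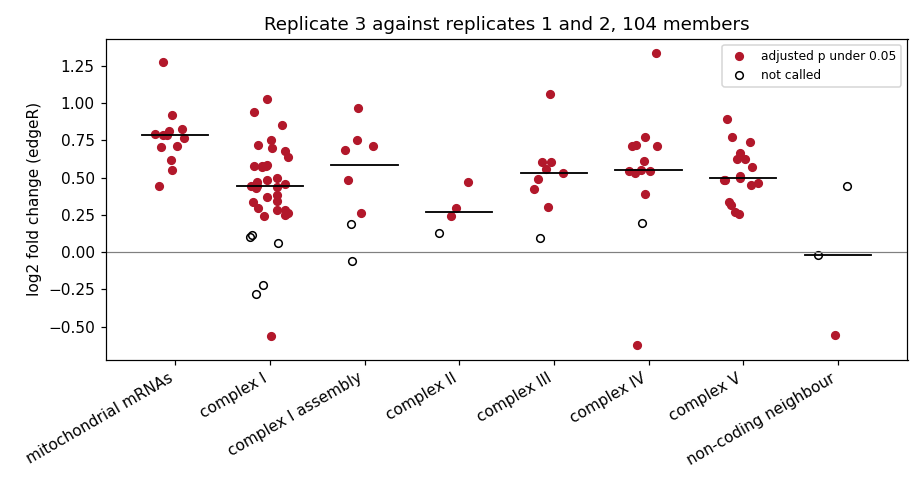
Log2 fold change of replicate 3 over replicates 1 and 2 (edgeR) for each of the 104 members by complex; filled points have an adjusted p under 0.05, open points do not, and lines are medians. Most points lie above 0, from 1.33 for NDUFA4 down to −0.62 for NDUFA4L2.

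Within single groups the rise of replicate 3 was not the same for both genomes. For the mitochondrial mRNAs the median log2 ratio of replicate 3 over the mean of replicates 1 and 2 was 0.53 in S14 CM, 1.72 in S14 mock, 0.38 in S5 CM, 0.87 in S5 mock, 0.27 in EV CM and 0.59 in EV mock. For the nuclear coding members it was 0.69 in S14 CM, 0.66 in S14 mock, 0.30 in S5 CM, 0.59 in S5 mock, 0.25 in EV CM and 0.44 in EV mock. S14 mock therefore had the largest mitochondrial value but a nuclear value close to that of S14 CM.

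Other mitochondrial gene lists moved the same way in replicate 3, where 52.2% of all genes tested were called, 26.1% higher and 26.2% lower. All 13 genes of electron carriers, adenine nucleotide exchange and the ATP synthase inhibitor were called higher, with cytochrome c (CYCS) at 0.97. Of 76 tested mitochondrial ribosomal proteins 63 were called higher and none lower, of 31 genes of mitochondrial transcription and RNA handling 23 higher and 2 lower, of 18 tricarboxylic acid cycle genes 13 higher and 1 lower, and of 46 assembly factors outside the symbol rule 27 higher and 2 lower. Of 17 glycolytic genes 4 were higher and 5 lower, near the share over all genes. Cell cycle genes moved with them: 16 of 16 were called higher with a median of 1.77, and their summed level was 1582 to 3223 CPM in replicate 3 and 269.6 to 1449 CPM in replicates 1 and 2. The summed lymphocyte markers were highest in replicate 3 in 6 of 6 groups, at 4.13 to 15.3 CPM against 2.11 to 7.20 CPM in replicates 1 and 2. This sum rested largely on NKG7, since CD3E, CD3D and MS4A1 had at most a few counts over all libraries. The summed monocyte and macrophage markers were lowest in replicate 3 in 5 of 6 groups, at 4592 to 5723 CPM against 5173 to 6275 CPM. Depth differed too, at 24.3 ± 1.45 M counts in replicate 3 and 20.0 ± 2.28 M in the others. The part of cell cycle state, of these marker genes or of depth in the result was not tested.

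To ask whether Siglec-14 came with a change in the respiratory chain, the S14 line was compared with the EV line in each medium. In mock medium 1 member was called over the 3 replicates, NDUFB9, an accessory subunit of complex I (chr8:124539101-124580648, GRCh38). It had 149.6, 109 and 113 CPM in S14 mock (replicates 3, 1 and 2), against 93.6, 67.9 and 72.2 CPM in EV mock. All 3 S14 libraries lay above all 3 EV libraries; the exact two-sided permutation p was 0.1, the smallest that 3 against 3 can give. NDUFB9 rose by a log2 fold change of 0.67 ± 0.20 (edgeR, adjusted p 0.0261), and 21.0% of its exonic bases overlap genes on the opposite strand. It was 1 called of 91 nuclear members, beside 20% of all genes tested, and 7 nuclear members had an unadjusted p under 0.05. DESeq2 called 2, beside 24.2% of all genes. Of the 10 monocyte and macrophage markers CD33 (log2 fold change −1.01), CD14 (−1.58) and LYZ (−2.32) were called lower in S14 mock and none higher in edgeR, while the list summed to 4592 to 5887 CPM in S14 mock and 5299 to 6161.5 CPM in EV mock; its part in the result was not tested. No mitochondrial mRNA was called by edgeR or DESeq2, and none had an unadjusted p under 0.05.

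The call of NDUFB9 did not survive leaving out replicate 1 of EV mock (adjusted p 0.106), replicate 2 of EV mock (0.0889) or replicate 3 of S14 mock (0.0813), or fitting only the groups compared (0.0676). In the model with the replicate number as a block, 11 nuclear members were higher and 1 lower, beside 37.4% of all genes. These included NDUFB9 at 0.67 ± 0.11 (adjusted p 0.000247), UQCRC1 at 0.64 ± 0.12, SDHB at 0.69 ± 0.15 and NDUFAF2, an assembly factor, at 1.03 ± 0.21, while NDUFAF6, another assembly factor, was lower at −0.63 ± 0.22. UQCRC1 had 299.6, 214 and 216 CPM in S14 mock (replicates 3, 1 and 2), against 191, 140.0 and 136 CPM in EV mock. Its groups did not overlap. No mitochondrial mRNA was called with the block.

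Without replicate 3, mitochondrial mRNAs were lower in S14 mock than in EV mock. COX1 had 4463 and 4289 CPM in S14 mock, against 7095 and 6848 CPM in EV mock, but 12023 CPM in S14 mock and 9482 CPM in EV mock in replicate 3. ND3, a small membrane subunit of complex I, had 269.5 and 245.5 CPM in S14 mock, against 433 and 492 CPM in EV mock, and 974 against 762 CPM in replicate 3. Both S14 libraries of replicates 1 and 2 were thus below the EV libraries, and the S14 library of replicate 3 above the EV library of replicate 3. Fitted to replicates 1 and 2, 12 of the 13 mitochondrial mRNAs were called lower and none higher, with a median log2 fold change of −0.68, beside 55.6% of all genes called and 27.7% called lower. ND3 fell by 0.85 ± 0.10 (adjusted p 1.1e-07), CYTB, the mitochondrial subunit of complex III, by 0.72 ± 0.09 and COX1 by 0.68 ± 0.09. ND6 had −0.53 ± 0.23 and was not called (adjusted p 0.0836). Without replicate 3 of S14 mock alone, 9 of 13 mitochondrial mRNAs and 6 of 91 nuclear members were called, beside 27% of all genes.

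Nuclear members went both ways in replicates 1 and 2, 18 higher and 12 lower in S14 mock than in EV mock. Their share called was below the 55.6% of all genes called in this fit. Higher were SDHB at 0.88 ± 0.11, UQCRC1 at 0.64 ± 0.10, ATP5F1B at 0.53 ± 0.09, NDUFAF2 at 1.06 ± 0.23 and NDUFAF7 at 0.58 ± 0.13. SDHD also rose, by 0.31 ± 0.09. Lower were NDUFC2 at −1.04 ± 0.18 and NDUFB1 at −0.84 ± 0.12, both accessory subunits of complex I, NDUFA4 at −0.93 ± 0.14 and COX4I1 at −0.57 ± 0.11 in complex IV, and ATP5MG, in the membrane part of complex V, at −0.78 ± 0.15. NDUFA4 had 26.8 and 22.9 CPM in S14 mock, against 54.1 and 40.2 CPM in EV mock, and 125 against 106 CPM in replicate 3.

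Within replicate 3 the median log2 ratio of S14 mock over EV mock was 0.37 over the mitochondrial mRNAs, with 12 of 13 above 0, while within replicate 1 it was −0.63 and within replicate 2 −0.74, with all 13 below 0 in both. For the nuclear coding members the medians were 0.26, −0.08 and −0.05 in replicates 3, 1 and 2. The difference itself was tested in a fit with 1 mean for each group in replicate 3 and 1 in replicates 1 and 2, where replicate 3 has 1 library per group and is assumed to vary like the others. In it 11 mitochondrial mRNAs and 19 nuclear members had a larger S14 effect in replicate 3 and 1 nuclear member, SDHB, a smaller one, beside 22.8% of all genes called and 11.3% called with a larger effect. COX3 differed by 1.30 ± 0.16, ATP8 by 1.23 ± 0.17 and NDUFA4 by 1.16 ± 0.23 on the log2 scale. ND5, at 0.36 ± 0.19, and ND6, at 0.90 ± 0.37, were not called. NDUFB9 differed by 0.01 ± 0.18 (adjusted p 0.98) and UQCRC1 by 0.01 ± 0.16 (adjusted p 0.983). Cell cycle genes moved with the mitochondrial mRNAs. In replicates 1 and 2 all 16 were lower in S14 mock than in EV mock, with a median of −2.39, where 27.7% of all genes were called lower. Of these cell cycle genes 15 had a larger S14 effect in replicate 3. Their summed level was 1582, 279 and 269.6 CPM in S14 mock (replicates 3, 1 and 2), against 1921, 1332 and 1205 CPM in EV mock; their part in the result was not tested.

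In conditioned medium NDUFB9 was again the 1 member called over 3 replicates, beside 11.1% of all genes. It had 165, 126 and 135 CPM in S14 CM (replicates 3, 1 and 2), against 90.8, 80.2 and 72.3 CPM in EV CM. The groups did not overlap, and it rose by 0.81 ± 0.20 (edgeR, adjusted p 0.0141). Its adjusted p was 0.0543 without replicate 1 of EV CM, 0.0722 without replicate 2 of EV CM and 0.0511 without replicate 3 of S14 CM. Without either of these EV CM libraries no nuclear member was called, beside 6.35% and 6.41% of all genes, and without that S14 CM library 4 were, beside 11.5%. No mitochondrial mRNA was called by edgeR or DESeq2 or had an unadjusted p under 0.05 in them, and DESeq2 called 1 nuclear member, beside 14.6% of all genes. With the block, 7 nuclear members were higher and 1 lower, beside 23.6% of all genes. Among them NDUFA4L2 rose by 1.01 ± 0.32, COX7A2L, which joins complexes III and IV in supercomplexes, by 0.56 ± 0.18 and UQCRC1 by 0.47 ± 0.12, while NDUFV3, a complex I subunit, fell by 0.41 ± 0.12. Replicates 1 and 2 alone gave 7 nuclear members higher, 14 lower and 0 mitochondrial calls in edgeR (1 with an unadjusted p under 0.05), beside 43.9% of all genes.

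The medians of S14 CM over EV CM in replicates 3, 1 and 2 were 0.29, −0.02 and 0.06 for the mitochondrial mRNAs and 0.34, −0.03 and −0.02 for the nuclear coding members. Here 18 nuclear members had a larger S14 effect in replicate 3 than in replicates 1 and 2 and 1 a smaller one, COX7A2L, beside 18.1% of all genes called and 7.44% called with a larger effect. Among the mitochondrial mRNAs ND1 and COX3 differed, by 0.54 ± 0.16 and 0.50 ± 0.16. COX5B, a nuclear subunit of complex IV, had the largest difference of these, 1.42 ± 0.35. It had 245.5 CPM in S14 CM and 91.4 CPM in EV CM in replicate 3, and 101 and 88.3 CPM in S14 CM against 104 and 84.7 CPM in EV CM in replicates 1 and 2. The plot of S14 over EV within replicates shows both media.

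**Figure D4:**
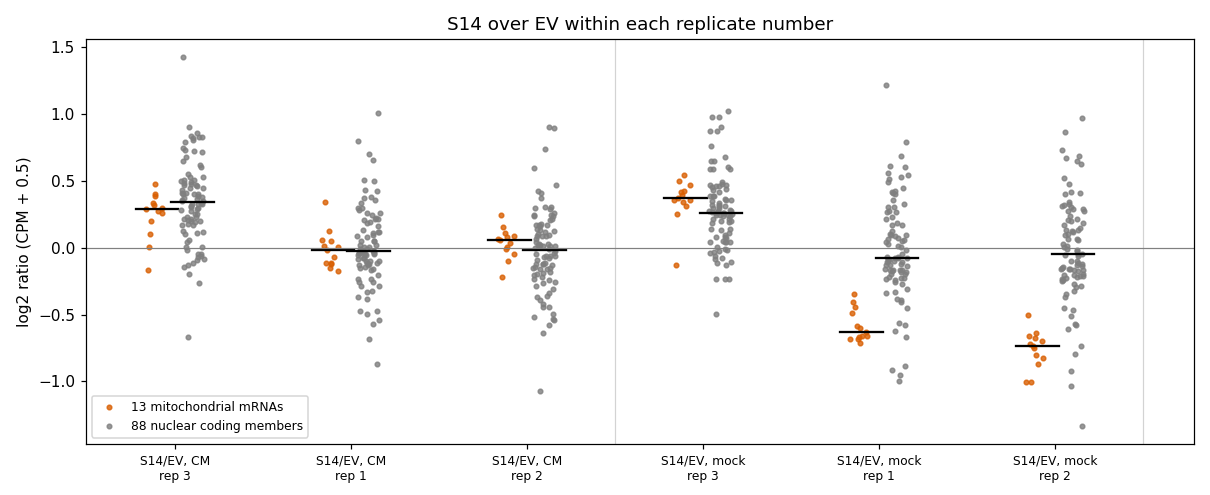
Log2 ratio of S14 over EV (CPM + 0.5) within each replicate number in conditioned (left) and mock medium (right), 1 point per gene, for the 13 mitochondrial mRNAs (orange) and 88 nuclear coding members (grey), with medians as lines. In mock medium the mitochondrial median is 0.37 in replicate 3 and −0.63 and −0.74 in replicates 1 and 2.

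Compared with the S5 line in mock medium, the S14 line had 1 called member over 3 replicates, NDUFC1, an accessory complex I subunit (chr4:139266880-139302551, GRCh38), beside 21.5% of all genes. NDUFC1 had 18.0, 15.7 and 16.0 CPM in S14 mock (replicates 3, 1 and 2), against 28.96, 24.7 and 24.8 CPM in S5 mock. The groups did not overlap and it fell by 0.66 ± 0.21 (edgeR, adjusted p 0.037), a call lost with no filter on low counts and without any 1 library except replicate 3 of S14 mock (adjusted p 0.0736 to 0.13); 18.5% of its exonic bases overlap MGARP on the same strand. DESeq2 also called 1 nuclear member, beside 25% of all genes, and no mitochondrial mRNA was called by either tool or had an unadjusted p under 0.05. With the block 6 nuclear members were higher and 2 lower, beside 38.5% of all genes, among them NDUFAF2 at 0.92 ± 0.21, NDUFS8 (a core complex I subunit) at 0.53 ± 0.17 and COX4I1 at −0.52 ± 0.17. Replicates 1 and 2 alone gave 13 nuclear members higher and 19 lower and 10 mitochondrial mRNAs lower, ND3 by 0.79 ± 0.10, beside 54.8% of all genes called and 27.4% called lower. Without replicate 3 of S14 mock 9 nuclear members and 7 mitochondrial mRNAs were called, beside 28.6% of all genes. This comparison and that with EV share the S14 libraries.

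In conditioned medium no member differed between S14 and S5 in edgeR over 3 replicates, beside 13.8% of all genes, while DESeq2 called 1 nuclear member, beside 17.1%. An unadjusted p under 0.05 in edgeR was met by 4 nuclear members and no mitochondrial mRNA. With the block 2 were higher, NDUFB9 at 0.58 and UQCRC1 at 0.40, and 2 lower, NDUFC1 at −0.58 and NDUFV3 at −0.43, beside 26.6% of all genes. Replicates 1 and 2 alone gave 4 nuclear members higher and 23 lower, beside 42.5% of all genes. ND4L, a complex I subunit, was then higher at 0.54 and COX3, of complex IV, lower at −0.24.

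The S5 and EV lines were not told apart by any member over 3 replicates in either medium, in edgeR, beside 0% of all genes, or in DESeq2, beside 0.028% in mock and 0.056% in conditioned medium. An unadjusted p under 0.05 in edgeR was met by 1 nuclear member in mock medium and by 0 in conditioned medium, and by no mitochondrial mRNA. Without replicate 3, ATP5ME, in the membrane part of complex V, was called in mock medium, beside 1.97% of all genes, with 22.5 and 22.2 CPM in S5 mock against 16.0 and 17.0 CPM in EV mock. It rose by 0.43 ± 0.11 (adjusted p 0.0416). In conditioned medium ATP5ME at 0.44 ± 0.11 and ATP5MK, another membrane-part subunit, at 0.46 ± 0.11 were called, beside 2.18% of all genes. Of the exonic bases of ATP5ME 61.6% overlap MYL5.

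To ask what tumour-cell medium did to the respiratory chain, conditioned medium was compared with mock in each line. In the S14 line no member was called over 3 replicates in edgeR, beside 0.0504% of all genes, while 4 nuclear members and no mitochondrial mRNA had an unadjusted p under 0.05 and DESeq2 called 1 nuclear member, beside 5.02%. All 13 mitochondrial estimates were above 0, with a median of 0.45. COX1 had 13128, 8931 and 8498 CPM in S14 CM (replicates 3, 1 and 2), against 12023, 4463 and 4289 CPM in S14 mock. The groups overlapped through the mock library of replicate 3. With the block, ND4 at 0.68 ± 0.20, ND4L at 0.69 ± 0.20 and COX1 at 0.65 ± 0.20 were called higher, beside 11% of all genes. Among nuclear members NDUFA4L2 rose by 1.23 ± 0.33 and COX7A2L by 0.63 ± 0.18, and NDUFS6 fell by 0.72 ± 0.19 and ATP5F1B by 0.46 ± 0.13.

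All 13 mitochondrial mRNAs were called higher in conditioned medium in replicates 1 and 2 of the S14 line, with a median of 1.00, beside 45.2% of all genes called and 21.7% called higher. ND3 had 653.5 and 566 CPM in S14 CM, against 269.5 and 245.5 CPM in S14 mock, and rose by 1.19 ± 0.10 (adjusted p 9.3e-10). In replicate 3 it had 843 CPM in S14 CM and 974 CPM in S14 mock. Nuclear members split, 14 higher and 18 lower. NDUFA4L2 had 9.67 and 9.63 CPM in S14 CM, against 3.27 and 2.63 CPM in S14 mock, and rose by 1.65 ± 0.20, but had 3.25 CPM in S14 CM and 2.97 CPM in S14 mock in replicate 3. COX7A2L rose by 0.96 ± 0.09 and NDUFA4 by 0.97 ± 0.14, and NDUFS6 fell by 0.98 ± 0.16, ATP5F1B by 0.74 ± 0.09, NDUFV3 by 0.64 ± 0.09 and SDHB by 0.57 ± 0.11. Without replicate 3 of S14 mock 11 mitochondrial mRNAs and 6 nuclear members were called, beside 11.2% of all genes, and without replicate 3 of S14 CM 3 nuclear members, beside 7.69%.

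The mitochondrial median of S14 CM over S14 mock was −0.08 in replicate 3, 1.04 in replicate 1 and 1.01 in replicate 2. The nuclear medians were 0.00, 0.06 and 0.00 in the same libraries. Tested as a difference, all 13 mitochondrial mRNAs had a smaller medium effect in replicate 3 than in replicates 1 and 2, by a median of 1.13 on the log2 scale, and 3 nuclear members a larger and 10 a smaller one, beside 21.4% of all genes called and 10.7% called with a smaller effect. NDUFA4L2 differed by −1.58 ± 0.37, ND3 by −1.45 ± 0.18 and SDHB by 0.83 ± 0.18. Again cell cycle genes moved with them in replicates 1 and 2, 14 higher and 1 lower of 16 in conditioned medium, with summed levels of 503 and 489 CPM in S14 CM against 279 and 269.6 CPM in S14 mock; their part was not tested. Mitochondrial ribosomal proteins went the other way, 6 higher and 44 lower of 76, as did genes of mitochondrial transcription and RNA handling, 1 higher and 17 lower of 31. In this fit of replicates 1 and 2, 45.2% of all genes were called and 21.7% called higher.

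In the S5 and EV lines conditioned medium left every member uncalled over 3 replicates in edgeR, beside 0.0056% of all genes in each line, with 0 members at an unadjusted p under 0.05. DESeq2 called none of them either, beside 0.0168% of all genes in the S5 line and 0.0224% in the EV line. For the S5 line, replicates 1 and 2 gave 11 mitochondrial mRNAs higher, with a median of 0.43, beside 7.06% of all genes called and 2.87% called higher. COX3 had 3400 and 3843 CPM in S5 CM, against 2442 and 2318 CPM in S5 mock, and rose by 0.59 ± 0.10. Its level in replicate 3 was 4674 CPM in S5 CM and 4818 CPM in S5 mock. Of the nuclear members UQCRB, a subunit of complex III, rose by 0.43 ± 0.10 and COX7C, a small complex IV subunit, by 0.36 ± 0.10. For the EV line they gave COX3 at 0.39 ± 0.10 and ATP6 at 0.37 ± 0.09 called higher, with a median of 0.30 over the 13, beside 3.17% of all genes called and 1.24% called higher.

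Whether the lines differed in this response was tested directly. Over 3 replicates no member was called for S14 minus EV or S5 minus EV in edgeR, where 0% of all genes were, or in DESeq2, where 0.0224% of all genes were for S14 minus EV and 0% for S5 minus EV. No member had an unadjusted p under 0.05. With replicates 1 and 2 alone the S14 response was larger than that of EV for 12 mitochondrial mRNAs, by a median of 0.70, and 4 nuclear members were larger and 6 smaller, beside 24.3% of all genes called and 12% called larger. ND3 differed by 0.87 ± 0.15, NDUFA4 by 1.16 ± 0.20 and COX7A2L by 0.83 ± 0.12, and ATP5F1B by −0.68 ± 0.13 and SDHB by −0.68 ± 0.15. ND6 had 0.32 ± 0.32 and was not called. For S5 minus EV no gene was called in replicates 1 and 2. The plot of conditioned over mock medium gives each replicate of each line.

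**Figure D5:**
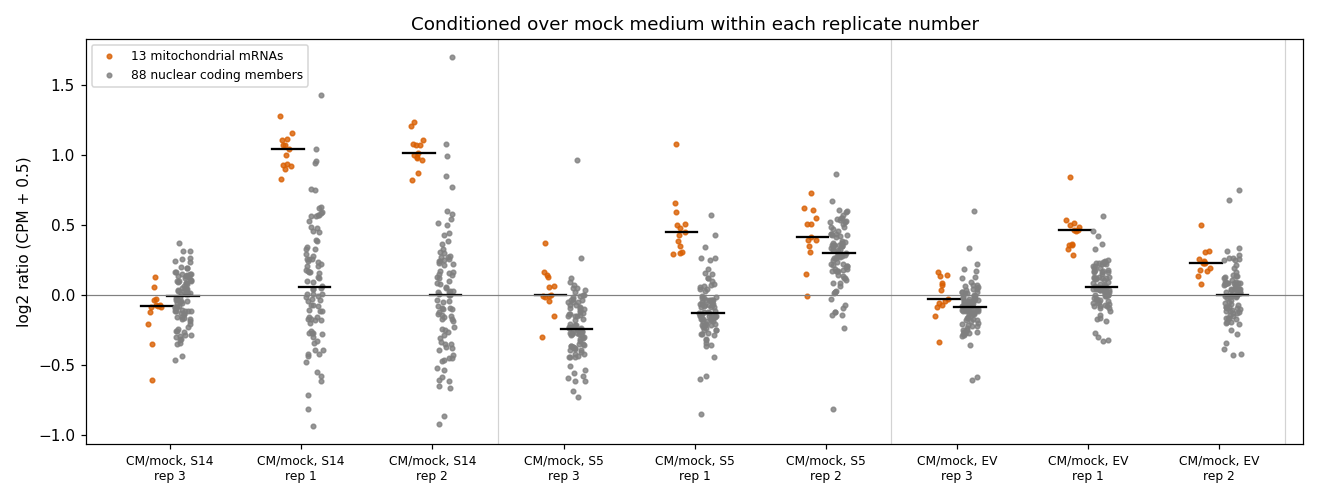
Log2 ratio of conditioned over mock medium (CPM + 0.5) within each replicate number of the S14, S5 and EV lines, 1 point per gene, for the 13 mitochondrial mRNAs (orange) and 88 nuclear coding members (grey), with medians as lines. The mitochondrial median is −0.08 in replicate 3 of the S14 line and 1.04 and 1.01 in its replicates 1 and 2.

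The make-up of the mitochondrial pool was led by COX1, ND4 and COX2 in all 18 libraries. Of the counts on the 13 mRNAs COX1 took 25.7% ± 1.08 (SD over 18 libraries), ND4 17.7%, COX2 12.2% and COX3 10.4% ± 1.03, and ATP8 and ND6 took 0.457% and 0.304%. Shares of counts depend on length, so they rank reads and not molecules. ND5, the largest of these complex I subunits, shifted within the S14 line. It took 4.74% in replicate 3 of S14 CM and 7.45% and 7.50% in replicates 1 and 2, and 5.15% in replicate 3 of S14 mock and 8.47% and 8.50% in the others. COX3 went the other way, with 12.1% in replicate 3 of S14 mock and 8.94% and 9.15% in replicates 1 and 2. This rise was not limited to the S14 line. COX3 had 11.8% in replicate 3 of S5 mock, against 10.2% and 9.89%, and 10.7% in EV mock, against 9.45% and 9.65%. Its share was also highest in replicate 3 of S14 CM and EV CM, but not of S5 CM.

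Beside the members, the glycolytic genes had 10 of 17 called higher and none lower in S14 mock against EV mock over 3 replicates, with a median log2 fold change of 0.74, beside 20% of all genes called and 11.1% called higher. SLC2A1, the glucose transporter GLUT1, rose by 1.61, PKM, a pyruvate kinase, by 1.19 and TPI1, triosephosphate isomerase, by 0.76. In replicates 1 and 2 alone 13 were called higher, in a fit where 55.6% of all genes were called in either direction. Over 3 replicates the shares called in the other lists below were under the 20% of all genes, except among the regulators, where the share was above it. Tricarboxylic acid cycle genes had 0 of 18 called in edgeR, with 2 at an unadjusted p under 0.05 and 1 called by DESeq2. Cell cycle genes had 0 of 16 called by either tool and 0 at an unadjusted p under 0.05, with a median of −1.02. Mitochondrial ribosomal proteins had 6 of 76 higher, with MRPS30 at 1.08, and mitochondrial transcription and RNA handling had 2 of 31 higher, the helicase SUPV3L1 at 0.75 and the RNA polymerase POLRMT at 0.37. Of the assembly factors outside the symbol rule 3 were higher, with TMEM70 (complex V) at 0.78 and COX10 (heme synthesis for complex IV) at 0.76, and 1 lower, SURF1 (complex IV) at −0.53. Of the carriers VDAC2, an outer membrane channel, was higher at 0.65 and SLC25A6, an ADP/ATP carrier, lower at −0.70. Among 13 regulators 3 were higher, with GABPB1 at 0.62 and SIRT1 at 0.61, and PPARGC1A, the coactivator PGC-1α, was lower at −2.90.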

How the data were processed

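The authors deposited raw read counts per gene and TPM values for each of 18 libraries, made with HISAT2 on GRCh38 per the submitters' processing notes. Its version, the counting program, the annotation and the strand setting are not stated there, so reads of overlapping genes cannot be assigned with certainty. The deposited TPM values were used only for levels between genes. Libraries were grouped by their titles. Gene positions came from GENCODE release 29, which held 58516 of the identifiers.

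Counts were filtered with edgeR's default by group (17851 genes left), scaled with TMM factors and given as CPM. edgeR's quasi-likelihood test (edgeR 4.0.16, limma 3.58.1, R 4.3.3) used all 18 libraries together, each group having its own mean, and p-values were adjusted by Benjamini-Hochberg within each comparison. A member was called at an adjusted p under 0.05. Replicate 3 was compared with replicates 1 and 2 with the group as a term. Within-replicate ratios used log2(CPM + 0.5). edgeR, with and without the replicate block, and DESeq2 were run on simulated counts with known changes in S14 mock, for S14 against EV in mock medium. These counts held no shift of replicate 3. The replicate 3 contrast, the fit to replicates 1 and 2 alone and the test of the difference were not simulated.

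The members and lists were chosen with earlier results of these data known. For each comparison and complex the text draws on the 2 called members with the smallest p, with 1 CPM or more. It does not give every one. After seeing the data this was applied also to the blocked fit and to replicates 1 and 2. The text also names all isoform pairs, the highest and lowest by TPM and up to 3 genes per list. In replicate 3 NDUFA4 and ND6 were singled out by the size of their rise, after their values were seen. The 3 members lower in replicate 3 were named after their values were seen. Deviations from the group means correlated at 0.206 to 0.866 in all 45 pairs of same-numbered libraries. Since replicate 3 stood apart in every group, replicates 1 and 2 deviated from these means together. The correlations therefore cannot show that libraries numbered 1 or 2 are paired. Correlations between differently numbered libraries were not computed. Alternatives were DESeq2 1.42.0, upper-quartile factors, no filter, mitochondrial genes left out of library sizes, only the groups compared, the replicate block, replicates 1 and 2 only and leaving out each library.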

Additional observations from a re-analysis of the deposited data

Results flagged for a closer look

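Effects of the S14 line and of conditioned medium differed between replicate 3 and replicates 1 and 2 by a test of the difference itself, chosen after seeing the data and resting on 1 library per group in replicate 3. For S14 against EV in mock medium the difference was called for 20 of 91 nuclear members and 11 of 13 mitochondrial mRNAs, beside 22.8% of all genes. For S14 against EV in conditioned medium it was called for 19 nuclear members and 2 mitochondrial mRNAs, beside 18.1% of all genes. For conditioned against mock medium in the S14 line it was called for 13 nuclear members and 13 mitochondrial mRNAs, beside 21.4% of all genes. The nuclear counts are thus near the share over all genes in the first and second of these and below it in the third.

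In replicates 1 and 2, the response to conditioned medium differed between the S14 and EV lines for 10 of 91 nuclear members and 12 of 13 mitochondrial mRNAs, beside 24.3% of all genes, while over 3 replicates it was called for none.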

How the results depend on the processing

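Counts of called members changed with the replicates used. Shares over all genes changed too. For S14 against EV in mock medium they were 20% in the main fit and 24.2% with DESeq2. The block gave 37.4% and replicates 1 and 2 gave 55.6%. In conditioned medium they were 11.1%, 23.6% with the block and 43.9% in replicates 1 and 2. For S14 against S5 the main fit, block and replicates 1 and 2 gave 21.5%, 38.5% and 54.8% in mock medium. In conditioned medium these gave 13.8%, 26.6% and 42.5%. For S14 against EV in mock medium, where 1 nuclear member and 0 mitochondrial mRNAs were called, there were 2 nuclear calls with DESeq2, 0 with only the groups compared, 12 with the replicate block, 30 in replicates 1 and 2, and 12 mitochondrial calls in replicates 1 and 2; leaving out 1 library gave 0 to 6 nuclear and 0 to 9 mitochondrial calls. In conditioned medium the 1 nuclear call became 8 with the replicate block, 21 in replicates 1 and 2, and 0 to 4 without 1 library. For S14 against S5 in mock medium the 1 nuclear call became 0 with no filter, 2 with upper-quartile factors, 8 with the block and 32 in replicates 1 and 2, with 10 mitochondrial calls there, and 0 to 9 nuclear and 0 to 7 mitochondrial without 1 library. In conditioned medium the 0 nuclear calls became 1 with DESeq2, 2 with upper-quartile factors, 4 with the block and 27 in replicates 1 and 2, with 2 mitochondrial, and 0 to 2 nuclear without 1 library. For S5 against EV, replicates 1 and 2 gave 1 nuclear call in mock and 2 in conditioned medium, beside 1.97% and 2.18% of all genes. Shares over all genes are not given for line comparisons with only the groups compared, no filter or upper-quartile factors.

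For conditioned against mock medium in the S14 line the 0 nuclear calls became 1 with DESeq2, 4 with the block and 32 in replicates 1 and 2, and the 0 mitochondrial calls 3 with the block and 13 in replicates 1 and 2; without 1 library they were 0 to 6 nuclear and 0 to 11 mitochondrial. The shares over all genes for this S14 comparison were 0.0504% in the main fit, 5.02% with DESeq2, 11% with the block and 45.2% in replicates 1 and 2. Replicates 1 and 2 gave 2 nuclear and 11 mitochondrial calls in the S5 line, beside 7.06% of all genes. In the EV line they gave 2 mitochondrial calls, beside 3.17%. For the S14 response minus that of EV they gave 10 nuclear and 12 mitochondrial calls, beside 24.3%. Without replicate 1 or 2, replicate 3 against the other gave 61 to 65 nuclear and 12 to 13 mitochondrial calls, each among the original 79 and 13 and in the same direction. The mitochondrial share in S14 mock was 0.666 percentage points under that in EV mock (−0.666), −2.75 on deposited TPM and −1.66 to −0.144 without 1 library; the difference in the mitochondrial to nuclear ratio was −1.26, −3.27 on TPM and −2.23 to −0.741. Replicates 1 and 2 alone and the fits without 1 library use fewer samples. The cause of the changes in these counts and differences was not tested. Of 129 alternatives for 18 named results 112 stayed on the same side of the threshold, 17 were no longer past it and 0 reversed. Most of the 18 were replicate 3 results, where only SDHD and NDUFA6-DT lost alternatives, 2 of 6 each. Line results were less stable. NDUFB9 in S14 against EV lost 4 of 13 in mock and 3 of 13 in conditioned medium. NDUFC1 in S14 against S5, mock, lost 6 of 13. The block left the counts of the other comparisons within 1.5 times. Depth limits low members such as NDUFA7, with a mean count of 19.8.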
